A study of Mus musculus with 24 samples.

Results

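The 10 genes described here encode the enzymes that write and remove DNA methylation and the core of Polycomb repressive complex 2 (PRC2), in mouse B cells that lack PU.1, SpiB or both. They were taken by symbol from the count tables, 10 of 27179 genes, and the rule uses no measured value. Dnmt1, Uhrf1, Dnmt3a and Dnmt3b form the writing arm, Tet1, Tet2 and Tet3 the removing arm, and Ezh1, Ezh2 and Suz12 the PRC2 arm. All 10 had counts in every group.

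DNA methylation is copied to the new strand at replication by DNMT1, which UHRF1 brings to hemimethylated sites, while DNMT3A and DNMT3B place methyl groups on sites that carried none. The TET enzymes oxidise 5-methylcytosine, the step that starts its removal. PRC2 methylates histone H3 at lysine 27 to keep genes silent: EZH2 is its catalytic subunit in dividing cells, EZH1 the counterpart found mostly in resting cells, and SUZ12 a scaffold the complex cannot do without. Germinal centre B cells are known for high EZH2 and DNMT1, and TET2 and DNMT3A are known as genes often mutated in blood cancers.

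The study asked how the related ETS factors PU.1 (Spi1) and SpiB (Spib) act, alone and together, in mature B cells, and sequenced RNA of lymph node B cells in 24 libraries, with 2 libraries for every combination of 4 genotypes and 3 stages. The stages were naive cells, a 48 h culture with CD40L+IL-4 and a 48 h culture with LPS+IL-4. Cells were sorted as CD3- B220+ CD138-, from C57BL/6 mice of 6 to 20 weeks, matched for age and sex within an experiment. The study's methods call the replicates biological but do not say which libraries came from which animals, so that the p-values below measure the spread between these libraries. Control mice were Cd23T/+ and PU.1 cKO mice Spi1fl/fl Cd23T/+. The genotype of SpiB KO mice was Spi1fl/fl Cd23+/+ Spib-/-, whereas that of PU.1 SpiB DKO mice was Spi1fl/fl Cd23T/+ Spib-/-. Cd23T is a BAC transgene that places Cre under Cd23 sequences, active from the transitional B cell stage. SpiB KO mice thus differ from control mice also in having floxed Spi1 alleles and no Cre. The study describes the floxed Spi1 exon as partly retained in naive PU.1 SpiB DKO cells and removed after culture.

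Total counts per library ranged over 14231188 to 18194629 in naive cells, 9598674 to 61640683 in CD40L+IL-4 cultures and 22757630 to 73658850 in LPS+IL-4 cultures. Levels are given as CPM, counts on a common scale of library size, adjusted by edgeR's TMM factors over the 24 libraries. Changes are log2 fold changes ± SE from edgeR's quasi-likelihood test within a stage, and a gene was called when its Benjamini-Hochberg adjusted p over all genes tested was under 0.15 and its fold over 1.5. Spi1 differed from control by -1.54 ± 0.11 (adjusted p = 5.98e-05) on the log2 scale in naive PU.1 cKO cells, and Spib by -4.09 ± 0.13 (adjusted p = 5.64e-07) in naive SpiB KO cells. In PU.1 SpiB DKO the difference in Spi1 was -0.63 ± 0.11 in naive cells, -1.73 ± 0.21 after CD40L+IL-4 and -0.11 ± 0.10, not called, after LPS+IL-4. Spib was called lower in SpiB KO and with the double loss at every stage, with log2 fold changes of -5.50 to -3.83, and Spi1 in PU.1 cKO at every stage (-1.54 to -0.63). After LPS+IL-4, Spi1 was at 54.8 to 58.8 CPM in PU.1 SpiB DKO and 60.0 to 69.1 in control, so that the Spi1 level does not separate these libraries by over 1.5-fold from control. Counting over all exons, Spi1 transcripts without the floxed exon still give reads. The 8 B cell markers summed to 12142 to 12215 CPM in naive control and 9258 to 9829 in naive PU.1 SpiB DKO libraries. The T cell markers (8 genes) summed to 72.6 to 121 CPM in naive control, 122 to 123 for PU.1 cKO, 403 to 489 for SpiB KO and 602 to 603 for PU.1 SpiB DKO. The 8 plasmacytoid dendritic cell (pDC) markers summed to 252 to 419, 329.8 to 384, 1970.0 to 2480.4 and 2674 to 2972 CPM in the same order.

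The naive control libraries differed more from each other than the replicates of the other naive groups: the chi-square per gene between the pair was 73.6, against 10.2 for PU.1 cKO, 16.6 for SpiB KO and 23.8 for PU.1 SpiB DKO. The ribosomal transcript Rn45s took 3.62% of the counts of replicate 1 and 0.185% of replicate 2. Rn45s is among the genes of the chi-square, so that these measures are not independent. Among the 10 genes, Tet2 (3.44-fold), Dnmt1, Tet1, Dnmt3b and Tet3 (1.37-fold) differed most between these libraries. How many of all genes differed as much was not counted. Dnmt1 was at 58.4 and 114 CPM in control replicates 1 and 2, Tet2 at 4.95 and 17, Tet3 at 81.5 and 112, Dnmt3b at 4.04 and 6.32 and Tet1 at 1.98 and 1.12. Every naive comparison with control uses these libraries, and values that change without replicate 2 are given below. The 7 macrophage markers summed to 11.5 to 24 CPM in naive control and 72.3 to 74.2 in naive PU.1 SpiB DKO.

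The annotated spans of Dnmt1, Dnmt3a, Tet1, Tet3 and Ezh2 hold or overlap annotated non-coding genes, and no source used here states that strand was used in counting, so that reads in an overlap cannot be told apart. On GRCm38.p6 the genes lie at chr9:20907206-20959888 (Dnmt1), chr12:3801559-3914443 (Dnmt3a), chr2:153649411-153687730 (Dnmt3b), chr17:56303337-56323486 (Uhrf1), chr10:62804570-62887469 (Tet1), chr3:133463677-133545136 (Tet2), chr6:83362373-83457208 (Tet3), chr11:101191115-101226463 (Ezh1), chr6:47530274-47595270 (Ezh2), chr11:79993106-80034123 (Suz12). The values count reads over all exons of a gene.

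Over the stages, Uhrf1, Ezh2 and Dnmt1 were far higher in activated than in naive control cells, and Ezh1 was lower. On the deposited per-length scale (RPKM, reads scaled to the length of the gene and the depth of the library), Suz12 led in naive control cells with 31.1 ± 4.60 (mean ± SD, n = 2), followed by Ezh1 (20.2 ± 0.920), Dnmt1 (13.7 ± 6.06), Tet3 (8.83 ± 1.91) and Ezh2 (5.12 ± 0.413). Dnmt3a (3.38 ± 0.365), Uhrf1 (3.01 ± 0.235), Dnmt3b (1.32 ± 0.390), Tet2 (1.26 ± 0.932) and Tet1 (0.128 ± 0.0456) were lower. The neighbours Dnmt3a and Uhrf1, and Dnmt3b and Tet2, did not differ beyond their SDs, and Dnmt1, with the widest spread, overlapped both Ezh1 and Tet3.

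After CD40L+IL-4 the order in control was Uhrf1 (128 ± 14.8 RPKM), Dnmt1 (79.2 ± 25.3), Suz12 (70.3 ± 4.04) and Ezh2 (69.5 ± 1.67), then Dnmt3a (11.5 ± 2.80), Ezh1 (9.32 ± 0.542), Tet3 (7.32 ± 1.95), Tet2 (2.95 ± 0.472), Dnmt3b (1.34 ± 0.426) and Tet1 (0.0400 ± 0.0129). Dnmt1, Suz12 and Ezh2 lay within their SDs of each other, as did Dnmt3a and Ezh1, and Ezh1 and Tet3. After LPS+IL-4, a table normalized apart from the others, Ezh2 (151 ± 2.50 RPKM) and Uhrf1 (143 ± 1.43) stood above Suz12 (92.2 ± 2.73) and Dnmt1 (84.0 ± 5.88). Dnmt3a (11.8 ± 1.29), Tet3 (8.68 ± 0.751), Ezh1 (6.43 ± 1.05), Dnmt3b (4.64 ± 0.187), Tet2 (1.47 ± 0.534) and Tet1 (0.0985 ± 0.000179) followed. Suz12 and Dnmt1 lay within their SDs of each other there. Tet1 was last and Tet2 within the last 3 at every stage.

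**Figure D1:**
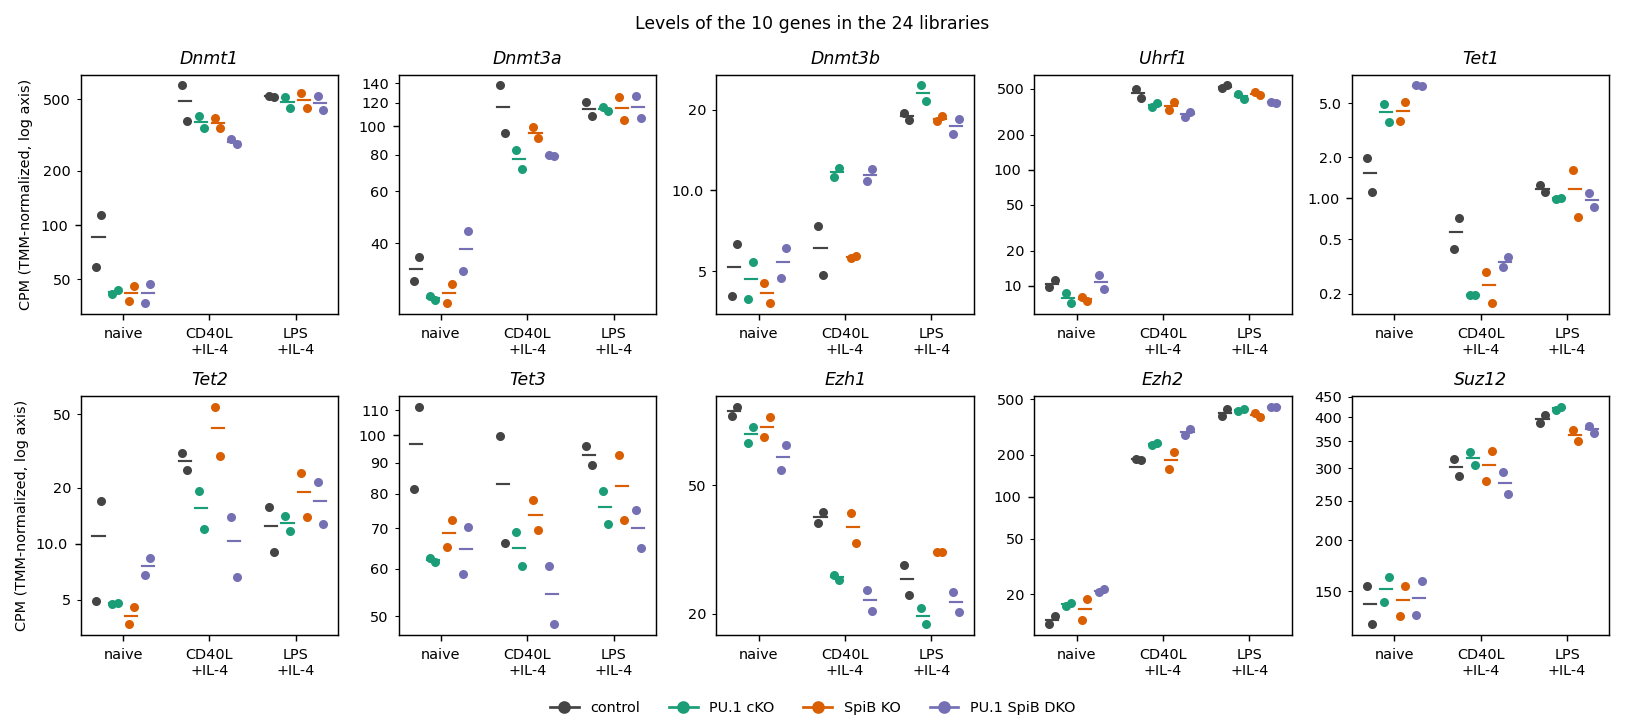
Level of each of the 10 genes in each of the 24 libraries, in TMM-normalized CPM on a log axis with a scale of its own in each panel. Points are libraries, horizontal bars the mean of the 2 libraries of a group, and colours the genotypes. Uhrf1, Ezh2 and Dnmt1 sit far higher in both cultures than in naive cells, Ezh1 lower, and Tet1 is highest in naive cells of the 3 mutant genotypes.

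Activation of control cells moved 8 of the 10 genes with CD40L+IL-4 (6 higher, 2 lower) and 7 with LPS+IL-4 (6 higher, 1 lower). The 8 include Tet1, which did not pass the filter of 0.5 CPM in 2 libraries among the CD40L+IL-4 libraries alone. Its entry came through stages where its level was higher. Of all 13684 genes tested, 48.8% (25.4% higher and 23.4% lower) and 63.9% (32.6% higher and 31.3% lower) were called. The median log2 fold change of the 10 genes was 1.23 and 1.65, against 0.00 and 0.01 over all genes. Stage and preparation cannot be told apart. Depth also differed between stages, as given above, and its part in the result was not tested. In bulk RNA, fewer cells that express a gene and less RNA per cell cannot be told apart either.

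Uhrf1, which recruits DNMT1, changed most among the 10 genes. It was at 9.75 and 11.1 CPM in the naive control libraries, 499 and 414 after CD40L+IL-4 and 503 and 534 after LPS+IL-4. The log2 fold change was 5.45 ± 0.17 (adjusted p = 1.03e-14) and 5.64 ± 0.17 (adjusted p = 6.58e-15), or 43.8-fold and 49.7-fold. Dnmt1 started higher and rose less, from 58.4 and 114 to 595 and 379.9 and 523 and 514 CPM. Its log2 fold change was 2.50 ± 0.25 (adjusted p = 7.15e-08) with CD40L+IL-4 and 2.59 ± 0.25 (adjusted p = 1.81e-08) with LPS+IL-4. Both genes of the maintenance pair therefore had higher levels in every activated control library than in any naive one.

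The 2 de novo enzymes differed. Dnmt3a rose with both stimuli, from 29.7 and 35.8 CPM to 137 and 94.4 and 120.4 and 108 (log2 fold change 1.83 ± 0.18, adjusted p = 5.95e-08, and 1.80 ± 0.18, adjusted p = 2.51e-08). Dnmt3b was at 4.04 and 6.32 CPM in naive cells, 7.37 and 4.82 after CD40L+IL-4 and 19.5 and 18.4 after LPS+IL-4. It rose with LPS+IL-4 (1.87 ± 0.22, adjusted p = 3.45e-07) but not detectably with CD40L+IL-4, where the estimate was 0.24 with a 95% interval of -0.26 to 0.75. The direct comparison of the cultures was 1.62 ± 0.22 (adjusted p = 8.11e-06). Without naive control replicate 2 the CD40L+IL-4 estimate for Dnmt3b was 0.60 (adjusted p = 0.0815) and passed.

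Among the TET genes, Tet3 was the most abundant and stayed within its spread: 81.5 and 112 CPM in naive control, 99.7 and 66.1 and 96.2 and 89.1 in the cultures, with intervals of -0.61 to 0.17 and -0.44 to 0.32 on the log2 scale. Tet2 was at 4.95 and 17, 30.9 and 25.1 and 15.9 and 9.09 CPM. Its difference was 1.35 ± 0.46 (adjusted p = 0.0185) with CD40L+IL-4 and 0.17 ± 0.45 (adjusted p = 0.760) with LPS+IL-4. These rest on which naive library is used: without replicate 1 the CD40L+IL-4 value was 0.72 (adjusted p = 0.220), and without replicate 2 the LPS+IL-4 value was 1.32 (adjusted p = 0.0361). Tet1 had 26 and 15 counts (1.98 and 1.12 CPM) in naive control, 5 and 7 counts (0.424 and 0.718) after CD40L+IL-4 and 30 and 63 counts (1.24 and 1.12) after LPS+IL-4. Among the CD40L+IL-4 libraries alone, Tet1 did not pass the filter of 0.5 CPM in 2 libraries. Tet1 entered the tests between stages through the libraries of the other stages, where its level was higher. It fell with CD40L+IL-4 (-1.46 ± 0.49, adjusted p = 0.0169), a call lost without naive replicate 1 (-0.99, adjusted p = 0.176) or CD40L+IL-4 replicate 1 (-1.10, adjusted p = 0.155). With LPS+IL-4 the Tet1 estimate was -0.39 (-1.19 to 0.40), and -0.75 (adjusted p = 0.144), called, without naive replicate 2.

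The catalytic subunits of PRC2 moved in opposite directions. Ezh2 was at 12.1 and 13.8 CPM in naive control, 187 and 183 after CD40L+IL-4 and 378 and 421 after LPS+IL-4, a log2 fold change of 3.83 ± 0.16 (adjusted p = 4.95e-13) and 4.94 ± 0.17 (adjusted p = 2.12e-14). Ezh1 went from 81.8 and 87.5 CPM to 38.3 and 41.4 and 28.4 and 22.8 (-1.09 ± 0.15, adjusted p = 3.89e-06, and -1.73 ± 0.15, adjusted p = 3.33e-09). The groups did not overlap for either gene. Suz12, already at 155 and 125 CPM in naive cells, rose to 317 and 288 and 388 and 405 (1.11 ± 0.14, adjusted p = 1.25e-06, and 1.5 ± 0.14, adjusted p = 1.01e-08).

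Between the cultures, 5 of the 10 genes were called in control (41.2% of all genes). These include Tet1, which did not pass the filter among the CD40L+IL-4 libraries alone. It entered through the other stages, where its level was higher, so that its direction here was favoured by that entry. Ezh2 (1.11 ± 0.14, adjusted p = 3.63e-06) and Dnmt3b were higher with LPS+IL-4, and Ezh1 (-0.64 ± 0.15, adjusted p = 0.00133) and Tet2 (-1.18 ± 0.44, adjusted p = 0.0337) were lower. The Tet2 difference was -0.83 (adjusted p = 0.254) without LPS+IL-4 control replicate 2. Tet1 was higher with LPS+IL-4 (1.06 ± 0.47, adjusted p = 0.0696), with values of 0.70 (adjusted p = 0.367) without CD40L+IL-4 control replicate 1 and 0.97 (adjusted p = 0.151) without LPS+IL-4 control replicate 1. The fold of Ezh1 fell below 1.5 without CD40L+IL-4 control replicate 2 (-0.58, adjusted p = 0.0151) or LPS+IL-4 control replicate 2 (-0.50, adjusted p = 0.0338). Dnmt1, Uhrf1, Dnmt3a and Tet3 were not called, with intervals of -0.39 to 0.57, -0.09 to 0.46, -0.37 to 0.33 and -0.23 to 0.54. Suz12 passed the adjusted p but not the fold (0.39 ± 0.13, adjusted p = 0.0222).

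**Figure D2:**
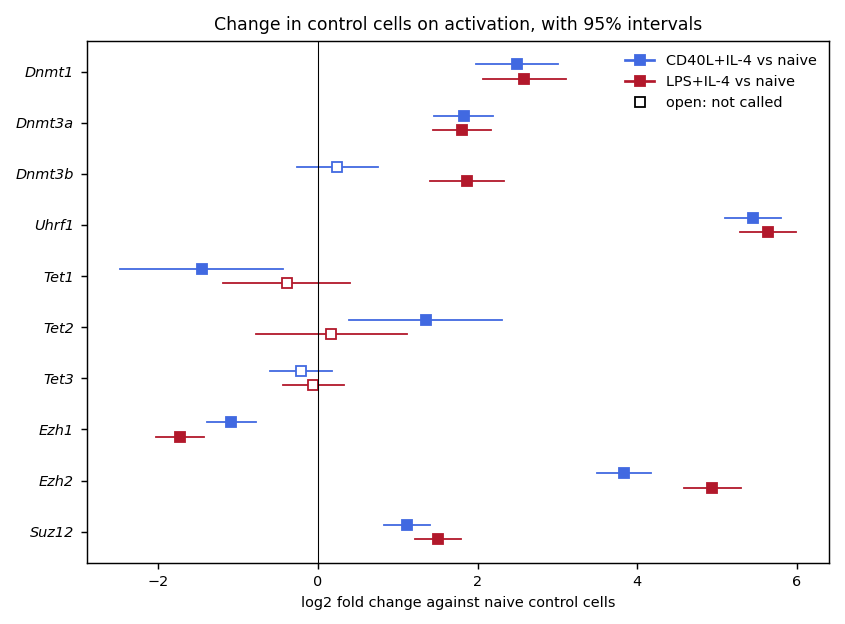
Log2 fold change of the 10 genes in control cells after CD40L+IL-4 (blue) and LPS+IL-4 (red) against naive control cells, with 95% intervals from edgeR. Filled squares were called. Uhrf1 and Ezh2 lie furthest to the right, at 5.45 and 5.64 and at 3.83 and 4.94, and Ezh1 lies to the left at -1.09 and -1.73.

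Over the 12 group means, the log2 CPM of Uhrf1 followed that of the summed proliferation list (17 genes of replication and mitosis) with r = 0.997, Ezh2 with 0.987, Dnmt1 with 0.984, Suz12 with 0.979 and Dnmt3a with 0.972. Dnmt3b (0.791), Tet2 (0.746) and Tet3 (0.125) followed it less closely, and Tet1 (-0.784) and Ezh1 (-0.925) ran against it. These 12 points share libraries with the list and fall into naive and activated groups, and the correlations are given as a description. Of 13683 other genes, those most like Uhrf1 over the same means were Pole (0.999), Lmnb1 (0.999) and Mcm7 (0.998), and those most like Ezh2 were Fabp5 (0.998), Dbf4 (0.997) and Bora (0.996). Dnmt1 was closest to Thrap3 (0.999), Odf2 (0.998) and Atad2 (0.996), Suz12 to Pms2 (0.996), Mre11a (0.994) and Usp1 (0.994) and Dnmt3a to Ccdc174 (0.994), 2700099C18Rik (0.990) and Optn (0.989). For Dnmt3b they were G6pdx (0.991), Rad23b (0.990) and Nars (0.989). Ezh1 ran closest to Arrb1 (0.995), Adcy7 (0.994) and Fcrla (0.991), and Tet1 to Stambpl1 (0.977), Hibadh (0.965) and Gramd1c (0.964). The closest genes to Tet2 were Pik3ca (0.938), Nub1 (0.937) and Pip5k1c (0.933). Lyst and Map4k1 (0.903 each) were among the genes closest to Tet3.

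Because 5 genes (Dnmt1, Uhrf1, Dnmt3a, Ezh2 and Suz12) rose together with both stimuli, the RefSeq promoters of the 10 genes (GRCm38.p6, 250 bases before to 50 after each start, all 10 matched) were searched on both strands for the E2F-type words TTTCCCGC, TTTGGCGC, TTTCGCGC and TTTGCCGC. E2F factors act at replication genes. The words were found in promoters of 4 of the 10 genes, Dnmt1, Uhrf1, Ezh2 and Suz12, and in 2.60% of all 27025 genes (2.26% of 32851 promoters). The 30 bases around each match are shown 5′ to 3′ on the strand of the gene, with the word in capitals (the word may lie on either strand):
Ezh2, chr6:47595009-47595038 (minus strand): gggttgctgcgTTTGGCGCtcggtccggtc
Dnmt1, chr9:20952824-20952853 (minus strand): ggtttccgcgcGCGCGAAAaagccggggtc
Dnmt1, chr9:20952574-20952603 (minus strand): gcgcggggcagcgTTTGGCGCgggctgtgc
Suz12, chr11:79992876-79992905 (plus strand): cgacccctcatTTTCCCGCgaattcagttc
Uhrf1, chr17:56304117-56304146 (plus strand): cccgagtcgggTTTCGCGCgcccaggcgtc
Both Dnmt1 windows come from 1 of 3 annotated starts of this gene. Ezh2 and that Dnmt1 start hold the word TTTGGCGC after the start (positions 3 and 33 from it), while the other Dnmt1 word (-219) and those of Suz12 (-219) and Uhrf1 (-185) lie before it. A match is a description of these letters and not a binding site. The PU box GAGGAA, a sequence that PU.1 and SpiB bind, was found in promoters of 5 of the 10 genes (Dnmt1, Dnmt3a, Dnmt3b, Ezh2 and Suz12) and in 31.3% of all genes. The longer word GAGGAAGT was in 0 of the 10 and in 3.69% of all genes.

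In naive cells each loss changed 3 of the 10 genes. PU.1 cKO had 1 higher and 2 lower (10.7% of 12500 genes tested were called, 4.18% higher and 6.55% lower), SpiB KO 1 higher and 2 lower (9.62%, 6.01% higher and 3.62% lower) and PU.1 SpiB DKO 2 higher and 1 lower (21.2%, 12.6% higher and 8.64% lower). Dnmt1 was lower and Tet1 higher in all 3. The comparisons share the control pair, so the recurrence of a gene is not independent evidence. Without naive control replicate 2 the calls for PU.1 cKO and SpiB KO were lost, and Tet1 and Ezh2 kept theirs for PU.1 SpiB DKO. Fewer of all genes were called without that library as well, in each of these comparisons.

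Dnmt1, the maintenance methyltransferase, was at 58.4 and 114 CPM in control, 41.8 and 43.5 in the PU.1 cKO pair, 38.0 and 46.3 in the SpiB KO pair and 36.9 and 47.4 in the PU.1 SpiB DKO pair. All 6 mutant libraries lay below both control libraries and close to each other. The log2 fold change was -1.03 ± 0.28 (adjusted p = 0.0574) for PU.1 cKO, -1.04 ± 0.28 (adjusted p = 0.0634) for SpiB KO and -1.03 ± 0.28 (adjusted p = 0.0291) for PU.1 SpiB DKO. Without control replicate 2 it was -0.45 (adjusted p = 0.225), -0.46 (adjusted p = 0.301) and -0.45 (adjusted p = 0.147), under the fold threshold each time. The call was also lost without PU.1 cKO replicate 1 (-1.0, adjusted p = 0.275) or replicate 2 (-1.07, adjusted p = 0.211), SpiB KO replicate 1 (-0.91, adjusted p = 0.370) or replicate 2 (-1.19, adjusted p = 0.163), and PU.1 SpiB DKO replicate 1 (-0.88, adjusted p = 0.175). PU.1 SpiB DKO differed from PU.1 cKO by 0.00 (95% interval -0.63 to 0.62).

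The other writers were not called in naive cells. Uhrf1 stayed at 7.04 to 12.2 CPM over the 8 libraries, Dnmt3a at 24.9 to 43.9 and Dnmt3b at 3.79 to 6.32. In PU.1 SpiB DKO their intervals against control were -0.43 to 0.54, -0.18 to 0.63 and -0.61 to 0.74. Dnmt3a was 32.1 and 43.9 CPM in PU.1 SpiB DKO and 26.3 and 25.6 in PU.1 cKO, and this difference passed the adjusted p but not the fold (0.56 ± 0.18, adjusted p = 0.0876), with 0.76 (adjusted p = 0.0517), called, without PU.1 SpiB DKO replicate 1.

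Tet1 gave the largest change of the 10 genes in naive cells. Control libraries held 26 and 15 counts (1.98 and 1.12 CPM), PU.1 cKO 72 and 54 (4.90 and 3.66 CPM), SpiB KO 58 and 88 (3.68 and 5.06 CPM) and PU.1 SpiB DKO 104 and 118 (6.73 and 6.64 CPM). Each mutant library was above both control libraries, and the PU.1 SpiB DKO pair above all others. The log2 fold change was 1.46 ± 0.34 (adjusted p = 0.0350) for PU.1 cKO, 1.5 ± 0.34 (adjusted p = 0.0342) for SpiB KO and 2.12 ± 0.33 (adjusted p = 0.00224) for PU.1 SpiB DKO. Without control replicate 2 these were 1.11 (adjusted p = 0.156), 1.15 (adjusted p = 0.189) and 1.77 (adjusted p = 0.0135), of which only the last passed. The PU.1 cKO call was also lost without its replicate 1 (1.23, adjusted p = 0.217) and the SpiB KO call without its replicate 2 (1.25, adjusted p = 0.176). PU.1 SpiB DKO differed from PU.1 cKO by 0.66 ± 0.30 (adjusted p = 0.226) and from SpiB KO by 0.62 ± 0.29 (adjusted p = 0.438), neither called.

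Marker genes of other cell types moved with part of this result. The study proposes that SpiB represses genes of other lineages within B cells. Bulk RNA cannot tell such expression in B cells from other cells in the sorted sample. The summed T cell and pDC markers were higher in the SpiB KO and the PU.1 SpiB DKO libraries than in control, as given above. Of 8 pDC markers 8 were called higher in each, of 7 T cell markers tested 4 and 5, and of 5 macrophage markers tested 1 and 3. Their part in the Tet1, Dnmt1, Tet2 and Ezh2 results of these genotypes was not tested. In PU.1 cKO the pDC sum (329.8 to 384 CPM) lay within the control range (252 to 419). The T cell sum (122 to 123) lay above both control libraries (72.6 to 121). The part of other cells in the PU.1 cKO results was not tested either.

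**Figure D3:**
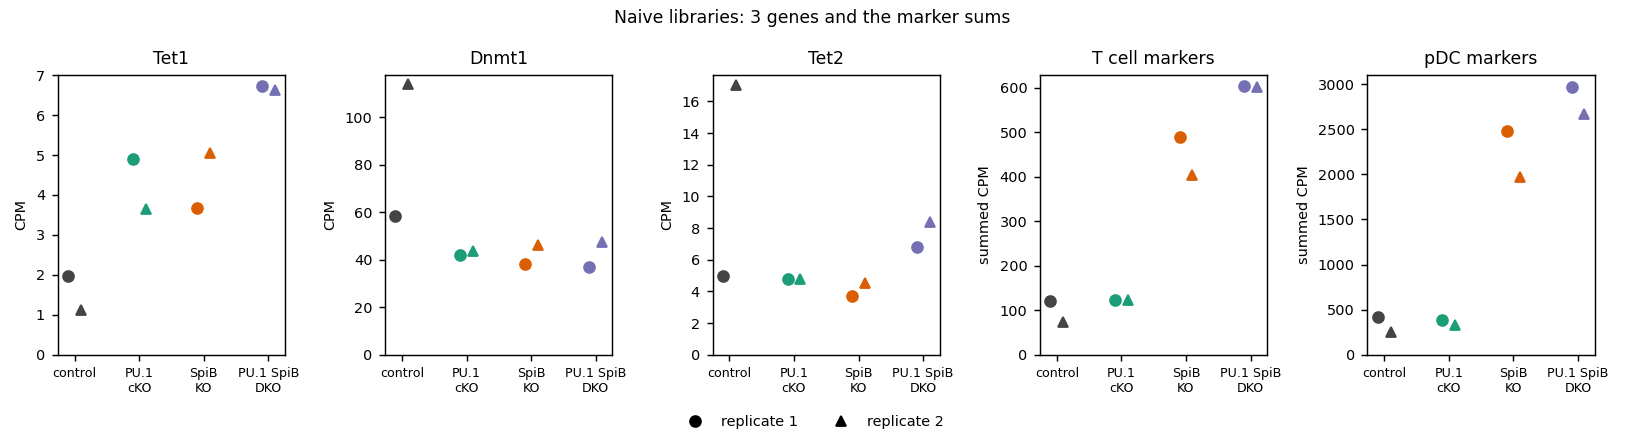
CPM of Tet1, Dnmt1 and Tet2 and the summed CPM of the 8 T cell and 8 pDC markers in the 8 naive libraries, with circles for replicate 1 and triangles for replicate 2. Tet1 is higher in all 3 mutant genotypes. The marker sums are highest in PU.1 SpiB DKO, followed by SpiB KO. The control triangle of Dnmt1 (114 CPM) and of Tet2 (17 CPM) stands above all other naive libraries.

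Tet2 in naive cells depended on the control library. It was at 4.95 and 17 CPM in control, 4.77 and 4.81 in the PU.1 cKO pair, 3.68 and 4.54 in the SpiB KO pair and 6.80 and 8.38 in the PU.1 SpiB DKO pair, so that control replicate 1 sat among the mutant libraries. The SpiB KO difference was called (-1.43 ± 0.47, adjusted p = 0.124), and PU.1 cKO (-1.22 ± 0.47, adjusted p = 0.157) and PU.1 SpiB DKO (-0.54 ± 0.46, adjusted p = 0.437) were not. Without control replicate 1 PU.1 cKO (-1.86, adjusted p = 0.00206) and PU.1 SpiB DKO (-1.19, adjusted p = 0.00701) were called as well. Without control replicate 2 the values were -0.25 (adjusted p = 0.805) in SpiB KO, -0.05 (adjusted p = 0.958) in PU.1 cKO and 0.63 (adjusted p = 0.199) with the double loss. The SpiB KO call was also lost without SpiB KO replicate 1 (-1.29, adjusted p = 0.497) or replicate 2 (-1.59, adjusted p = 0.255).

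Tet3 was at 81.5 and 112 CPM in control, 62.6 and 61.5 in the PU.1 cKO pair, 65.1 and 72.3 in the SpiB KO pair and 58.9 and 70.5 in the PU.1 SpiB DKO pair, with no overlap between control and any mutant pair. It was called in PU.1 cKO (-0.65 ± 0.17, adjusted p = 0.0507). SpiB KO (-0.50 ± 0.17, adjusted p = 0.130) and PU.1 SpiB DKO (-0.58 ± 0.17, adjusted p = 0.0401) passed the adjusted p but stayed under a fold of 1.5, and both were called without control replicate 1 (-0.74, adjusted p = 0.0104 and -0.82, adjusted p = 0.00349). PU.1 SpiB DKO was called also without its own replicate 2 (-0.72, adjusted p = 0.050). The PU.1 cKO call was lost without control replicate 2 (-0.39, adjusted p = 0.192), PU.1 cKO replicate 1 (-0.66, adjusted p = 0.235) or replicate 2 (-0.65, adjusted p = 0.211).

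In the PRC2 arm, Ezh2 was 12.1 and 13.8 CPM in naive control, 16.5 and 17.3 in the PU.1 cKO pair, 13.0 and 18.4 in the SpiB KO pair and 20.6 and 21.7 in the PU.1 SpiB DKO pair, the highest. It was called in PU.1 SpiB DKO (0.71 ± 0.19, adjusted p = 0.0298), and without control replicate 1 it kept the adjusted p but not the fold (0.58, adjusted p = 0.0910). The single losses gave intervals of -0.06 to 0.81 (PU.1 cKO) and -0.16 to 0.71 (SpiB KO). Ezh1 was 81.8 and 87.5 CPM in control and 55.6 and 66.6 in PU.1 SpiB DKO, a difference past the adjusted p and under the fold (-0.46 ± 0.14, adjusted p = 0.0403), which passed without PU.1 SpiB DKO replicate 2 (-0.61, adjusted p = 0.0403). Suz12 overlapped between control (155 and 125 CPM) and every mutant group, with an interval of -0.26 to 0.38 in PU.1 SpiB DKO. The summed proliferation list was 542 to 616 CPM in naive control and 523 to 551 in PU.1 SpiB DKO, with 2 of 17 genes called higher there.

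**Figure D4:**
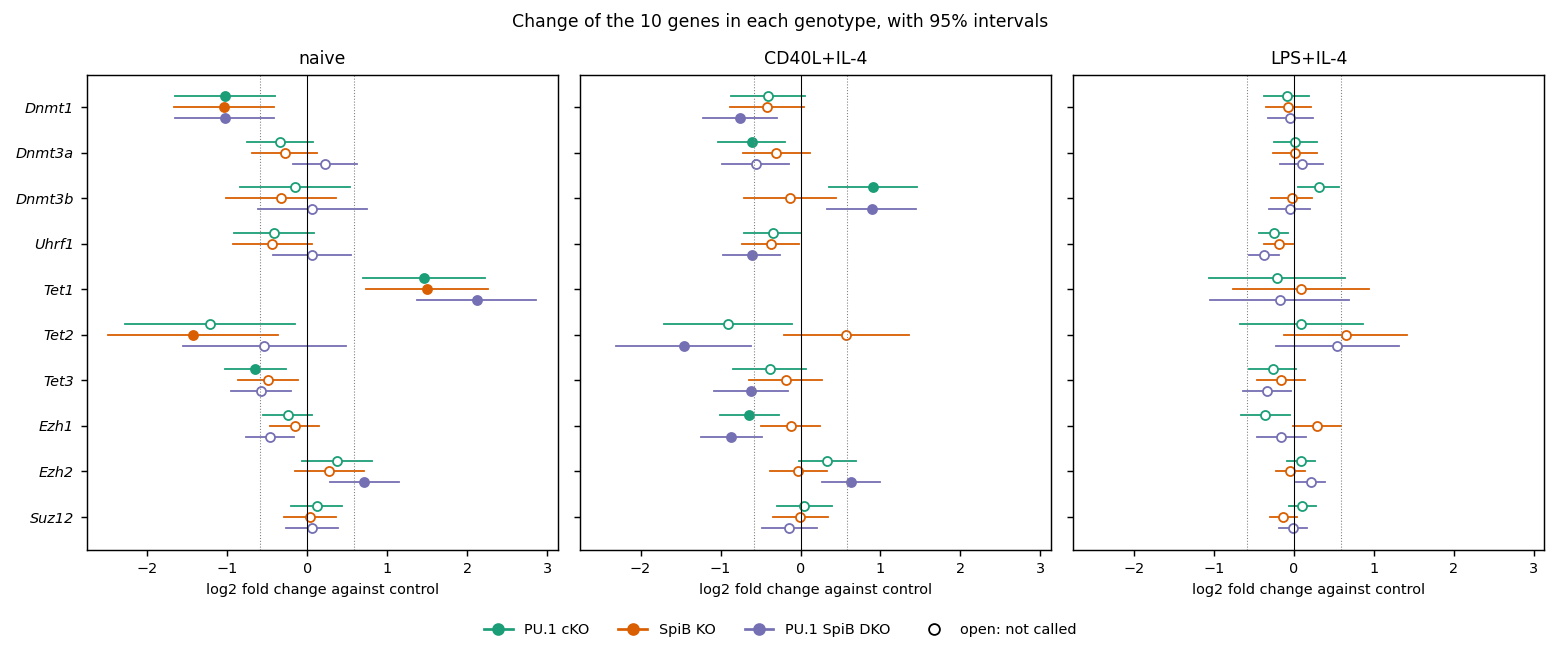
Log2 fold change against control of the 10 genes in PU.1 cKO (green), SpiB KO (orange) and PU.1 SpiB DKO (purple), with 95% intervals from edgeR, at each of the 3 stages. Filled points were called, and dotted lines mark a fold of 1.5. Called points lie in the naive and CD40L+IL-4 panels, those of PU.1 SpiB DKO are the most frequent after CD40L+IL-4 (7 of 9 genes tested), and the LPS+IL-4 panel has 0.

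After CD40L+IL-4 the double loss changed 7 of the 9 genes tested, 5 lower and 2 higher, while 18.3% of 12721 genes were called (9.13% higher and 9.2% lower). PU.1 cKO changed 3 (1 higher, 2 lower, against 13.5%, 6.27% higher and 7.21% lower) and SpiB KO 0 (0.134%). The median log2 fold change of the tested members in PU.1 SpiB DKO was -0.61, against 0.00 over all genes. In SpiB KO 1 gene, Uhrf1, had an unadjusted p under 0.05, and DESeq2 and limma voom called 0 as well. Tet1, with 2 to 12 counts in each of the 8 libraries, did not pass the filter of 0.5 CPM in 2 libraries and was not tested. Without control replicate 1 most of the PU.1 SpiB DKO calls and part of the PU.1 cKO calls were lost. Fewer of all genes were called without that library as well, in both comparisons. Between the PU.1 SpiB DKO libraries of this culture the chi-square per gene was 76.2, against at most 36.3 in the other pairs of this culture. Rn45s took 6.64% of the counts of replicate 1 and 0.464% of replicate 2. It is among the genes of that chi-square, and its part in the value was not separated. Without PU.1 SpiB DKO replicate 1 most calls of that genotype against control held, and without its replicate 2 most were lost.

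The maintenance pair was lowest in PU.1 SpiB DKO. Dnmt1 was 595 and 379.9 CPM in control, 405 and 345 in the PU.1 cKO pair, 395 and 345 in the SpiB KO pair and 299.6 and 281 in the PU.1 SpiB DKO pair, which lay below every other library. Uhrf1 was 499 and 414, 350.3 and 380.0, 327 and 385 and 286 and 315 CPM in the same order, again with the 2 lowest values in PU.1 SpiB DKO. Both were called there (-0.76 ± 0.21, adjusted p = 0.0367 for Dnmt1, and -0.61 ± 0.16, adjusted p = 0.0311 for Uhrf1). Neither call held without control replicate 1 (-0.39, adjusted p = 0.273 for Dnmt1, -0.46, adjusted p = 0.186 for Uhrf1). Dnmt1 also lost its call without PU.1 SpiB DKO replicate 2 (-0.70, adjusted p = 0.177) and Uhrf1 without PU.1 SpiB DKO replicate 1 (-0.55, adjusted p = 0.153). In PU.1 cKO the Dnmt1 estimate was -0.40 (-0.86 to 0.06), called without control replicate 2 (-0.70, adjusted p = 0.0675). The proliferation list, whose level these genes track over stages, had 0 of 17 genes called in PU.1 SpiB DKO. It summed to 5119 to 6341 CPM in control and 5107 to 5823 in PU.1 SpiB DKO. From dilution of a dye at 48 h of this culture, the study describes modestly more division with the double loss, and also in PU.1 cKO. The part of division in the Dnmt1 and Uhrf1 values was not tested.

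The de novo enzymes went in opposite directions. Dnmt3b, low in control (7.37 and 4.82 CPM) and SpiB KO (5.61 and 5.71), was 11.2 and 12.1 CPM in PU.1 cKO and 10.8 and 12.0 in PU.1 SpiB DKO, so that the 4 libraries of these genotypes lay above the other 4. It was called in PU.1 cKO (0.91 ± 0.25, adjusted p = 0.0464), in PU.1 SpiB DKO (0.89 ± 0.25, adjusted p = 0.0413) and in PU.1 SpiB DKO against SpiB KO (1.02 ± 0.26, adjusted p = 0.0289), but not for the double loss against PU.1 cKO (interval -0.54 to 0.51). The first 2 calls were lost without control replicate 2 (0.63, adjusted p = 0.232 and 0.62, adjusted p = 0.169) and without replicate 2 of the mutant (0.87, adjusted p = 0.239 and 0.82, adjusted p = 0.170). The contrast with SpiB KO, which does not use the control libraries, kept its call without each of its 4 libraries. Dnmt3a was 137 and 94.4 CPM in control, 83.2 and 71.6 in the PU.1 cKO pair, 98.9 and 91.2 in the SpiB KO pair and 79.6 and 78.8 in the PU.1 SpiB DKO pair. It was called lower in PU.1 cKO (-0.61 ± 0.19, adjusted p = 0.0776), and in PU.1 SpiB DKO it stayed just under the fold (-0.56 ± 0.19, adjusted p = 0.0793), which it passed without control replicate 2 (-0.81, adjusted p = 0.0221). The PU.1 cKO call was lost without control replicate 1 (-0.29, adjusted p = 0.407) or PU.1 cKO replicate 2 (-0.48, adjusted p = 0.449).

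Tet2 showed the largest change after CD40L+IL-4. It was at 30.9 and 25.1 CPM in control, 19.3 and 11.9 in the PU.1 cKO pair, 54.9 and 29.7 in the SpiB KO pair and 14 and 6.63 in the PU.1 SpiB DKO pair. Both PU.1 SpiB DKO libraries lay below both control and both SpiB KO libraries. PU.1 SpiB DKO was -1.46 ± 0.38 (adjusted p = 0.0294) against control and -2.04 ± 0.38 (adjusted p = 0.00702) against SpiB KO, a 4.10-fold difference. The call against control was lost without control replicate 1 (-1.29, adjusted p = 0.165) or PU.1 SpiB DKO replicate 2 (-1.0, adjusted p = 0.180), and the call against SpiB KO held without each of its 4 libraries. PU.1 cKO fell short of the threshold (-0.90 ± 0.36, adjusted p = 0.168), and DESeq2 and limma voom called it, as did edgeR without PU.1 cKO replicate 1 (-1.23, adjusted p = 0.126). SpiB KO gave an estimate above 0 (0.58, interval -0.21 to 1.36).

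Tet3 was 99.7 and 66.1 CPM in control and 60.6 and 48.5 in PU.1 SpiB DKO, a called decrease (-0.62 ± 0.21, adjusted p = 0.0788). That call was lost without control replicate 1 (-0.28, adjusted p = 0.491) or PU.1 SpiB DKO replicate 2 (-0.45, adjusted p = 0.369), and by limma voom. In PU.1 cKO (69.1 and 60.7 CPM) the Tet3 interval was -0.84 to 0.07, and without control replicate 2 it was called (-0.65, adjusted p = 0.105).

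Ezh1 was lower and Ezh2 higher in PU.1 SpiB DKO, the direction in which activation moved them in control. Dnmt1, Uhrf1, Tet2 and, without a call in PU.1 SpiB DKO, Dnmt3a went against that direction. They were higher after activation of control and lower in PU.1 SpiB DKO. Ezh1, the catalytic subunit of resting cells, was 38.3 and 41.4 CPM in control, 26.4 and 25.5 in the PU.1 cKO pair, 41.0 and 33.1 in the SpiB KO pair and 23.7 and 20.4 in the PU.1 SpiB DKO pair, and the 4 libraries of the double loss and of PU.1 cKO were the 4 lowest. It was lower in PU.1 cKO (-0.64 ± 0.17, adjusted p = 0.0382), in PU.1 SpiB DKO (-0.86 ± 0.17, adjusted p = 0.00778) and in PU.1 SpiB DKO against SpiB KO (-0.74 ± 0.17, adjusted p = 0.0198). The PU.1 SpiB DKO call against control held without each of the 4 libraries it uses. The PU.1 cKO call was lost without control replicate 2 (-0.60, adjusted p = 0.152) or PU.1 cKO replicate 2 (-0.60, adjusted p = 0.260), and the call against SpiB KO without SpiB KO replicate 1 (-0.58, adjusted p = 0.161) or PU.1 SpiB DKO replicate 2 (-0.64, adjusted p = 0.162). Ezh2 was 187 and 183 CPM in control, 233 and 242 in the PU.1 cKO pair, 158 and 209.8 in the SpiB KO pair and 275 and 304 in the PU.1 SpiB DKO pair, the highest. It was higher in PU.1 SpiB DKO than in control (0.64 ± 0.16, adjusted p = 0.0281) and than in SpiB KO (0.66 ± 0.16, adjusted p = 0.0287). Without PU.1 SpiB DKO replicate 2 these became 0.57 (adjusted p = 0.156) and 0.58 (adjusted p = 0.184), and without SpiB KO replicate 1 the latter was 0.47 (adjusted p = 0.217). Suz12 (317 and 288 CPM in control, 293 and 259 in PU.1 SpiB DKO) was not called (interval -0.49 to 0.20).

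Plasma cell markers moved with these differences. The 7 genes summed to 1291 to 1470.4 CPM in control, 2166 to 2367 for PU.1 cKO, 1257 to 1832 for SpiB KO and 2752 to 2913 for PU.1 SpiB DKO, with 5 of 7 called higher in PU.1 cKO and 6 of 7 with the double loss. The 8 B cell markers summed to 5654 to 7294 CPM in control and 3782 to 4806 in PU.1 SpiB DKO. The part of either marker list in the results was not tested. After LPS+IL-4, 0 of the 10 genes were called against control without a replicate block. The plasma cell sum there was 696 to 771 CPM in control, 1369 to 1475 in PU.1 cKO and 1850 to 1909 in PU.1 SpiB DKO. Against SpiB KO, 4 of the 9 genes were called in PU.1 SpiB DKO (15.3% of all genes), Dnmt3b, Tet2, Ezh1 and Ezh2. Against PU.1 cKO 0 of the 9 were called (4.06% of all genes), 0 had an unadjusted p under 0.05 and DESeq2 and limma voom also called 0. The interaction of the losses gave 0 calls, with 0 unadjusted p under 0.05 (1.17% of all genes), and 0 by either other tool. For Tet2 the interaction was -1.13 (-2.28 to 0.02).

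After LPS+IL-4 none of the 10 genes was called by edgeR in any of the 3 comparisons with control, although 10.5% (PU.1 cKO), 3.19% (SpiB KO) and 20.2% (PU.1 SpiB DKO) of 12445 genes were. An unadjusted p under 0.05 was reached by 3, 1 and 3 of the 10, with no share of all genes taken at that threshold. DESeq2 and limma voom called 0 in each. Every library of this culture held more counts than any naive library. In PU.1 SpiB DKO the interval of Dnmt1 was -0.32 to 0.24, that of Suz12 -0.18 to 0.16 and that of Dnmt3a -0.17 to 0.37 on the log2 scale, all inside a fold of 1.5.

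Small differences passed the adjusted p alone. Uhrf1 was 503 and 534 CPM in control, 451 and 408 in the PU.1 cKO pair, 467 and 439 in the SpiB KO pair and 385 and 375 in the PU.1 SpiB DKO pair, the lowest (-0.37 ± 0.08, adjusted p = 0.00758). Ezh2 was 378 and 421 CPM in control and 438 and 442 in PU.1 SpiB DKO (0.21 ± 0.08, adjusted p = 0.0674). Tet3 was 96.2 and 89.1 and 75.2 and 65.0 CPM (-0.33 ± 0.13, adjusted p = 0.0874). In PU.1 cKO such genes were Dnmt3b, at 24.6 and 21.6 CPM against 19.5 and 18.4 in control (0.31 ± 0.11, adjusted p = 0.125), Uhrf1 (-0.25 ± 0.08, adjusted p = 0.0895) and Ezh1 (-0.35 ± 0.14, adjusted p = 0.144). Dnmt3b in PU.1 SpiB DKO (16.3 and 18.5 CPM) lay below both PU.1 cKO libraries (-0.36 ± 0.11, adjusted p = 0.0513). Ezh1 was 28.4 and 22.8 CPM in control, 20.8 and 18.6 in the PU.1 cKO pair, 31.2 and 31.1 in the SpiB KO pair and 23.3 and 20.2 in the PU.1 SpiB DKO pair, lower there than in SpiB KO (-0.45 ± 0.14, adjusted p = 0.0498). Dnmt1 (437 to 539.6 CPM), Dnmt3a (105 to 127), Suz12 (350.3 to 425) and Tet1 (0.735 to 1.62) are given by their range over the 8 libraries. For Dnmt1 and Dnmt3a the control libraries overlapped every mutant pair. Both Suz12 control values (388 and 405 CPM) lay below the PU.1 cKO pair and above the other mutant pairs. Both Tet1 control values (1.24 and 1.12 CPM) lay above the pairs of the double loss and of PU.1 cKO, and between the SpiB KO values.

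Tet2 varied with the replicate number in this culture, at 15.9 and 9.09 CPM in control, 14.1 and 11.8 in the PU.1 cKO pair, 24.2 and 13.9 in the SpiB KO pair and 21.4 and 12.7 in the PU.1 SpiB DKO pair. Replicate 1 was higher than replicate 2 in each genotype. Same-numbered libraries deviated together across genes here, and in a fit blocked on the replicate number SpiB KO was called for Tet2 (0.63, adjusted p = 0.0262), against 0.65 ± 0.34 (adjusted p = 0.472) without it. In PU.1 SpiB DKO the blocked Tet2 value was 0.54 (adjusted p = 0.0107), under the fold, against 0.55 ± 0.34 (adjusted p = 0.255). Without control replicate 1, Tet2 was called in SpiB KO (1.11, adjusted p = 0.135) and in PU.1 SpiB DKO (1.01, adjusted p = 0.0658), and in PU.1 SpiB DKO also without its own replicate 2 (0.85, adjusted p = 0.111). The other comparisons of this culture gave 0 calls: the double loss against PU.1 cKO (12.6% of all genes called, 1 of the 10 with an unadjusted p under 0.05), against SpiB KO (12.8%, 2 of the 10) and the interaction (1.48%, 0 of the 10). DESeq2 and limma voom gave 0 in each of these.

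In naive cells PU.1 SpiB DKO gave 0 calls against PU.1 cKO (12.9% of all genes, 1 of the 10 with an unadjusted p under 0.05) and 0 against SpiB KO (3.03%, 4 of the 10), and DESeq2 and limma voom called 0 in both. The interaction of the losses was called for 0 of the 10 (0.936% of all genes) with 5 at an unadjusted p under 0.05, 3 calls by DESeq2 and 0 by limma voom. The share of 0.936% is that of edgeR's adjusted p. No share of all genes is given for the 5 and the 3, so they cannot be set against a background. The DESeq2 calls were Dnmt1, Dnmt3a and Tet2. Their edgeR estimates were 1.04 (0.16 to 1.92), 0.85 (0.27 to 1.42) and 2.11 (0.61 to 3.61). Without control replicate 1 edgeR called these and Tet3 (1.46, adjusted p = 0.0192, 1.0, adjusted p = 0.0817, 2.75, adjusted p = 0.00624 and 0.80, adjusted p = 0.0577 in that order). A value above 0 means that the change in PU.1 SpiB DKO lay above the sum of the changes in the single losses.

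Whether the double loss acted alike at the 3 stages was tested as the interaction of genotype and stage over all 24 libraries. It differed between CD40L+IL-4 and naive cells for 4 of the 10 genes (16.8% of all genes), between LPS+IL-4 and naive cells for 4 (29.6%) and between the cultures for 5 (28.6%). Tet3 and Suz12 were in none of the 3 sets. Tet1, Uhrf1, Dnmt3a, Dnmt3b and Ezh2 were each in 2.

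The other genes of these pathways were taken from lists of 12 partners and readers of DNA methylation, 9 demethylation partners, 9 further PRC2 subunits, the H3K27 demethylases Kdm6a and Kdm6b and 19 subunits of PRC1, the complex that binds the PRC2 mark. In control cells CD40L+IL-4 moved 4 higher and 2 lower of 11 in the first list (median 0.05), 3 higher and 3 lower of 8 in the second (-0.02), 4 higher and 1 lower of 9 in the third (0.35), 0 higher and 1 lower of 2 in the fourth and 5 higher and 6 lower of 19 in the last (-0.27), while the shares of all genes called and their medians were those given above. The largest were Hells, a chromatin remodeller needed for methylation (3.91 ± 0.22, adjusted p = 1.82e-11), Pcgf2, a PRC1 subunit (3.60 ± 0.89, adjusted p = 0.00210), and the PRC2 cofactors Phf1 (-3.33 ± 0.44, adjusted p = 3.38e-06) and Phf19 (3.03 ± 0.17, adjusted p = 2.89e-11). With LPS+IL-4 the counts were 4 higher and 4 lower of 11, 3 higher and 4 lower of 8, 5 higher and 2 lower of 9, 0 higher and 0 lower of 2 and 6 higher and 7 lower of 19. The largest were Hells (5.29 ± 0.23, adjusted p = 3.63e-13), Cxxc5, a CpG-binding partner of TET2 (-4.33 ± 0.29, adjusted p = 1.77e-10), Phf1 (-4.16 ± 0.44, adjusted p = 8.69e-08) and E130012A19Rik, from the PRC2 list (2.95 ± 0.19, adjusted p = 5.97e-11). Between the cultures they were Gadd45g (-2.37 ± 0.35, adjusted p = 1.79e-05), Cbx6 (-1.80 ± 0.11, adjusted p = 1.50e-09), Gadd45b (1.68 ± 0.19, adjusted p = 8.92e-07) and Cxxc5 (-1.58 ± 0.28, adjusted p = 0.000130).

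In naive PU.1 SpiB DKO the 5 lists gave 0 higher and 1 lower of 11, 2 higher and 0 lower of 8, 1 higher and 2 lower of 9, 0 higher and 1 lower of 2 and 3 higher and 1 lower of 18 tested, with medians of -0.18, 0.19, -0.20, -0.37 and -0.30, while 12.6% of all genes were called higher and 8.64% lower. Cbx2, a PRC1 subunit that reads H3K27 methylation, was higher (1.68 ± 0.20, adjusted p = 0.000534), as were Gadd45b (1.27 ± 0.18, adjusted p = 0.00121) and Idh2 (1.18 ± 0.12, adjusted p = 0.000226), a source of the TET cosubstrate, while the PRC1 subunit Cbx7 was lower (-1.14 ± 0.14, adjusted p = 0.000650). In PU.1 cKO Cbx2 (2.12 ± 0.20, adjusted p = 0.000383) and Gadd45b (1.29 ± 0.18, adjusted p = 0.00306) were higher and Gadd45g (-1.45 ± 0.24, adjusted p = 0.00708) and Phf1 (-0.71 ± 0.11, adjusted p = 0.00622) lower. In SpiB KO Cbx2 (0.70 ± 0.21, adjusted p = 0.0919), Idh2 (0.69 ± 0.12, adjusted p = 0.0102) and Gadd45b (0.69 ± 0.18, adjusted p = 0.0576) were higher and Kdm6b (-0.95 ± 0.31, adjusted p = 0.117) lower. The call of Cbx2 in SpiB KO was lost without SpiB KO replicate 1, control replicate 2 or SpiB KO replicate 2, at 0.57 to 0.80 (adjusted p = 0.171 to 0.436). The call of Kdm6b in SpiB KO was lost without SpiB KO replicate 1, control replicate 2 or SpiB KO replicate 2, at -1.20 to -0.52 (adjusted p = 0.182 to 0.539). The call of Gadd45b in SpiB KO was lost without control replicate 1 or SpiB KO replicate 2, at 0.55 (adjusted p = 0.122 to 0.244).

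After CD40L+IL-4, PU.1 SpiB DKO gave 0 higher and 2 lower of 11, 3 higher and 0 lower of 8, 0 higher and 1 lower of 9, 0 higher and 0 lower of 2 and 1 higher and 1 lower of 19 tested, with medians of -0.27, 0.50, -0.14, 0.12 and 0.01, while 9.13% of all genes were called higher and 9.2% lower. Among those called, Gadd45b (1.07 ± 0.22, adjusted p = 0.00818) and Gadd45g (0.84 ± 0.26, adjusted p = 0.0578) were higher and Zbtb4, a reader of methylated DNA, was lower (-0.83 ± 0.26, adjusted p = 0.0620). In PU.1 cKO the DNA glycosylase Tdg (0.73 ± 0.22, adjusted p = 0.0648) and Gadd45g (0.69 ± 0.26, adjusted p = 0.144) were higher, and SpiB KO gave 0 calls in the 5 lists. The call of Gadd45g in PU.1 SpiB DKO was lost without control replicate 1, PU.1 SpiB DKO replicate 1 or control replicate 2, at 0.35 to 0.86 (adjusted p = 0.159 to 0.389). The call of Zbtb4 in PU.1 SpiB DKO was lost without control replicate 1 or PU.1 SpiB DKO replicate 2, at -0.78 to -0.55 (adjusted p = 0.224 to 0.343). The call of Tdg in PU.1 cKO was lost without PU.1 cKO replicate 1, control replicate 2 or PU.1 cKO replicate 2, at 0.48 to 0.77 (adjusted p = 0.164 to 0.304). The call of Gadd45g in PU.1 cKO was lost without control replicate 1, PU.1 cKO replicate 1, control replicate 2 or PU.1 cKO replicate 2, at 0.54 to 0.86 (adjusted p = 0.203 to 0.373).

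After LPS+IL-4 the 10 enzymes had no call against control without a replicate block. PU.1 SpiB DKO gave 1 higher and 1 lower of 11, 3 higher and 1 lower of 8, 0 higher and 0 lower of 9, 0 higher and 0 lower of 2 and 4 higher and 1 lower of 19 tested, with medians of 0.20, 0.12, -0.01, 0.01 and 0.08, while 20.2% of all genes were called. The higher plasma cell sum of these libraries was given above, and its part in these values was not tested. Gadd45g (2.71 ± 0.37, adjusted p = 0.000659), Cxxc5 (1.90 ± 0.28, adjusted p = 0.000912), Zbtb38, a reader of methylated DNA (1.57 ± 0.16, adjusted p = 0.000118), and Cbx6 (1.13 ± 0.10, adjusted p = 5.63e-05) were higher, and all 4 stayed called without each library used. In PU.1 cKO Gadd45g (1.03 ± 0.36, adjusted p = 0.108), Zbtb38 (0.70 ± 0.16, adjusted p = 0.0199) and Cbx6 (0.66 ± 0.10, adjusted p = 0.00260) were higher and Zbtb4 (-0.64 ± 0.22, adjusted p = 0.0966) lower. In SpiB KO Cxxc5 (1.05 ± 0.28, adjusted p = 0.0999), Zbtb38 (0.79 ± 0.16, adjusted p = 0.0385) and Zbtb4 (0.72 ± 0.21, adjusted p = 0.148) were higher. The call of Gadd45g in PU.1 cKO was lost without PU.1 cKO replicate 1, control replicate 2 or PU.1 cKO replicate 2, at 0.52 to 1.18 (adjusted p = 0.19 to 0.361). The call of Zbtb38 in PU.1 cKO was lost without control replicate 2, at 0.49 (adjusted p = 0.104). The call of Cbx6 in PU.1 cKO was lost without control replicate 2, at 0.56 (adjusted p = 0.0136). The call of Zbtb4 in PU.1 cKO was lost without control replicate 1 or PU.1 cKO replicate 2, at -0.49 to -0.25 (adjusted p = 0.441). The call of Cxxc5 in SpiB KO was lost without SpiB KO replicate 1, control replicate 2 or SpiB KO replicate 2, at 0.58 to 1.14 (adjusted p = 0.242 to 0.389). The call of Zbtb38 in SpiB KO was lost without SpiB KO replicate 1 or control replicate 2, at 0.58 to 0.73 (adjusted p = 0.189 to 0.237). The call of Zbtb4 in SpiB KO was lost without SpiB KO replicate 1, control replicate 2 or SpiB KO replicate 2, at 0.39 to 0.80 (adjusted p = 0.291 to 0.644).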

How the data were processed

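RNA-seq counts of 24 libraries (8 for each stage) were used. The authors aligned reads to GRCm38/mm10 with Subread, discarded reads without a unique position and took counts over RefSeq exons with featureCounts. The deposited values are raw counts per gene and, in a second kind of table, log2 RPKM that the authors made with limma and quantile normalized, naive and CD40L+IL-4 libraries together and LPS+IL-4 libraries apart. Tool versions and the use of strand are not given in the sources used here. The log2 RPKM values served only to order genes per length within a stage, after conversion to a linear scale, and the count tables served all tests. Entries without a symbol (517, 0.162% of counts) were kept in the library totals and among the genes that could be tested.

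Genes with at least 0.5 CPM in 2 libraries were tested with edgeR 4.0.16 (R 4.3.3), TMM normalization and the quasi-likelihood test, on the 8 libraries of a stage for genotypes and on all 24 for control stages and for the double loss between stages. The Benjamini-Hochberg adjustment ran over all genes tested. Shares of all genes beside a count are those of the edgeR call, and none was taken at an unadjusted p. A call needed an adjusted p under 0.15 and a fold over 1.5, and interactions the adjusted p alone. An exact permutation test of 2 against 2 libraries cannot go below 0.333 and was not used. Alternatives were DESeq2 1.42.0, limma 3.58.1 (voom, quantile normalization), DESeq2 size factors, no filter on low counts, a replicate block, a stricter threshold and leaving out each library in turn. The procedure was tested on simulated counts. The titles and the paper give the stage, although the extraction protocol in the labels speaks of CD40L with IL-4 for every sample.

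The 10 genes, the partner lists and the marker lists were chosen with earlier results of these data known. Of the 5 partner lists, the at most 4 called genes of largest absolute log2 fold change per comparison with control and per control stage comparison are named, with Spi1 and Spib, except where a gene is not reported here. Marker and proliferation genes are given as sums and counts. The labels number the replicates 1 and 2 in each group. Deviations of same-numbered LPS+IL-4 libraries from their group means correlated in every pair of genotypes (r = 0.386 to 0.514), which was taken as pairing. In naive libraries r was lower but above 0 in every pair (0.0918 to 0.250), with 5 of 6 pairs over 0.1. In CD40L+IL-4 libraries r was -0.0702 to 0.266, with 4 of 6 pairs over 0.1. Neither was taken as pairing, and the tests given are without a replicate block unless stated. Promoter sequences are from RefSeq, GRCm38.p6.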

Additional observations from a re-analysis of the deposited data

Results flagged for a closer look

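The change in PU.1 SpiB DKO against control differed between stages for 13 pairs of gene and stages, by the test of the difference itself (edgeR, interaction of genotype and stage, 24 libraries, adjusted p under 0.15). A negative value means a lower log2 fold change in the stage named first. In comparisons with naive cells, stage and the extent of PU.1 loss cannot be told apart. The study describes the floxed Spi1 exon as partly retained in naive PU.1 SpiB DKO cells.

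For Tet1 the difference was -2.80 ± 0.75 (adjusted p = 0.0204) for CD40L+IL-4 against naive cells and -2.36 ± 0.51 (adjusted p = 0.00367) for LPS+IL-4 against naive cells. The first rests on few counts after CD40L+IL-4, 5 and 7 in control and 3 and 4 in PU.1 SpiB DKO, while these naive libraries held 15 to 118. Tet1 did not pass the filter on low counts among the CD40L+IL-4 libraries alone. It entered this fit through the libraries of the other stages, where its level was higher. For Dnmt1 the effect after LPS+IL-4 minus that in naive cells was 0.92 ± 0.33 (adjusted p = 0.0653). The call of Dnmt1 was lost without naive PU.1 SpiB DKO replicate 1, naive control replicate 2, LPS+IL-4 PU.1 SpiB DKO replicate 1 or LPS+IL-4 control replicate 2, at 0.35 to 0.87 (adjusted p = 0.189 to 0.484).

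Uhrf1 had a lower effect in both cultures than in naive cells, by -0.65 ± 0.21 (adjusted p = 0.0564) with CD40L+IL-4 and -0.49 ± 0.21 (adjusted p = 0.110) with LPS+IL-4, and limma voom called neither. The call of Uhrf1 (CD40L+IL-4 against naive) was lost without CD40L+IL-4 control replicate 1, naive control replicate 1 or naive PU.1 SpiB DKO replicate 1, at -0.56 to -0.44 (adjusted p = 0.153 to 0.284). The call of Uhrf1 (LPS+IL-4 against naive) was lost without naive control replicate 1, naive PU.1 SpiB DKO replicate 1, LPS+IL-4 PU.1 SpiB DKO replicate 1, LPS+IL-4 control replicate 2 or LPS+IL-4 PU.1 SpiB DKO replicate 2, at -0.54 to -0.29 (adjusted p = 0.170 to 0.452). Dnmt3a had a lower effect after CD40L+IL-4 than in naive cells, -0.77 ± 0.25 (adjusted p = 0.0557), and a higher one after LPS+IL-4 than after CD40L+IL-4, 0.58 ± 0.24 (adjusted p = 0.108). The call of Dnmt3a (CD40L+IL-4 against naive) was lost without CD40L+IL-4 control replicate 1, naive control replicate 1 or naive PU.1 SpiB DKO replicate 2, at -0.64 to -0.50 (adjusted p = 0.164 to 0.261). The call of Dnmt3a (between the cultures) was lost without CD40L+IL-4 control replicate 1, CD40L+IL-4 PU.1 SpiB DKO replicate 1, CD40L+IL-4 PU.1 SpiB DKO replicate 2, LPS+IL-4 PU.1 SpiB DKO replicate 1 or LPS+IL-4 control replicate 2, at 0.28 to 0.58 (adjusted p = 0.155 to 0.495). Dnmt3b had a higher effect after CD40L+IL-4 than in naive cells, 0.84 ± 0.33 (adjusted p = 0.129), and a lower one after LPS+IL-4 than after CD40L+IL-4, -1.02 ± 0.30 (adjusted p = 0.0289). The call of Dnmt3b (CD40L+IL-4 against naive) was lost without CD40L+IL-4 control replicate 2, CD40L+IL-4 PU.1 SpiB DKO replicate 2, naive PU.1 SpiB DKO replicate 1 or naive control replicate 2, at 0.48 to 0.71 (adjusted p = 0.307 to 0.498).

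For Tet2 the effect after LPS+IL-4 minus that after CD40L+IL-4 was 1.92 ± 0.64 (adjusted p = 0.0483), with estimates on either side of 0 in the cultures (0.55 and -1.46). Ezh1 gave 0.63 ± 0.21 (adjusted p = 0.0491) for the same pair of cultures. Ezh2 gave -0.57 ± 0.21 (adjusted p = 0.0706) for LPS+IL-4 against naive cells and -0.51 ± 0.20 (adjusted p = 0.0874) for LPS+IL-4 against CD40L+IL-4, and limma voom called neither. The call of Tet2 between the cultures was lost without CD40L+IL-4 PU.1 SpiB DKO replicate 2, LPS+IL-4 PU.1 SpiB DKO replicate 1 or LPS+IL-4 control replicate 2, at 1.48 to 1.56 (adjusted p = 0.204 to 0.222). The call of Ezh1 between the cultures was lost without CD40L+IL-4 PU.1 SpiB DKO replicate 2, LPS+IL-4 PU.1 SpiB DKO replicate 1 or LPS+IL-4 control replicate 2, at 0.47 to 0.53 (adjusted p = 0.184 to 0.237). The call of Ezh2 between the cultures was lost without CD40L+IL-4 PU.1 SpiB DKO replicate 2, LPS+IL-4 PU.1 SpiB DKO replicate 1, LPS+IL-4 control replicate 2 or LPS+IL-4 PU.1 SpiB DKO replicate 2, at -0.50 to -0.42 (adjusted p = 0.160 to 0.290). The call of Ezh2 (LPS+IL-4 against naive) was lost without naive control replicate 1 or LPS+IL-4 control replicate 2, at -0.52 to -0.47 (adjusted p = 0.178 to 0.189).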

How the results depend on the processing

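With DESeq2 size factors in edgeR, each count of called genes stayed within 1.5 times its value. Without the filter on low counts, naive PU.1 SpiB DKO gave 1 call against PU.1 cKO and 1 against SpiB KO, the naive interaction 5, the CD40L+IL-4 interaction 1 and LPS+IL-4 SpiB KO 1, against 0 with it. DESeq2 called 3 in the naive interaction. Limma voom called 2 in the difference of the PU.1 SpiB DKO effect between LPS+IL-4 and naive cells, against 4. In fits with a replicate block, the naive interaction gave 5 calls, the double loss against PU.1 cKO after CD40L+IL-4 1, the CD40L+IL-4 interaction 1 and LPS+IL-4 SpiB KO 1. Pairing was taken only for LPS+IL-4, while naive libraries gave lower correlations that were above 0 in every pair. The block moved no other count by over 1.5 times. At an adjusted p under 0.05, naive PU.1 cKO gave 1 call, naive SpiB KO 1, and the difference of the PU.1 SpiB DKO effect 1 (CD40L+IL-4 against naive), 1 (LPS+IL-4 against naive) and 3 (between the cultures). The cause of these changes was not tested. The shares of all genes called under these settings are not given here.

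Leaving out 1 library gave 0 to 4 calls in naive PU.1 cKO, 0 to 4 in naive SpiB KO and 2 to 5 in naive PU.1 SpiB DKO, 0 to 1 for the double loss against PU.1 cKO and 0 to 4 for the interaction. After CD40L+IL-4 it gave 0 to 4 in PU.1 cKO, 2 to 7 in PU.1 SpiB DKO and 2 to 4 for PU.1 SpiB DKO against SpiB KO. After LPS+IL-4 it gave 0 to 1 in SpiB KO and 0 to 1 in PU.1 SpiB DKO, and the 8 comparisons of genotypes not named here gave 0. The control stage comparisons gave 6 to 9 (CD40L+IL-4 against naive), 7 to 9 (LPS+IL-4 against naive) and 3 to 4 (between the cultures), and the differences of the PU.1 SpiB DKO effect 2 to 4, 1 to 4 and 1 to 6. A group left with 1 library was assumed to vary like the others. Shares of all genes beside these counts are not given here. No called value of the 10 genes or the named partner genes changed sign under any of these settings. With 2 libraries a group, 84 values lost and 24 gained a call when 1 library was left out, and 1064 kept their side of the threshold. Tet1 held 2 to 12 counts in each CD40L+IL-4 library, which limits the precision of its values there.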
